A study of Mus musculus with 4 samples.

Results

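The 9 genes described here encode the subunits of cohesin, and they were taken by symbol from the GRCm38.p6 annotation, which corresponds to mm10 and holds 49939 genes on chromosomes 1 to 19, X and Y. The 4 meiotic members were Smc1b, Rec8, Rad21l and Stag3, all autosomal. The 5 general members were Smc3, Rad21 and Stag1 on autosomes and Smc1a and Stag2 on X. For each gene, the ATAC-seq peaks inside it or up to 1 kb outside it were collected from the lists of 4 libraries. Merging peaks that overlapped gave 54 regions in these genes, of 155908 regions in all.

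Cohesin is a ring that holds sister chromatids together. A heterodimer of SMC proteins (SMC3 with SMC1α or SMC1β) is closed by a kleisin (RAD21, RAD21L or REC8) and bound by a STAG protein (STAG1, STAG2 or STAG3). Spermatocytes replace much of the general complex with forms that contain SMC1β, REC8, RAD21L and STAG3, which organise the chromosome axes on which the synaptonemal complex is built. REC8 and RAD21L are restricted to germ cells, and loss of STAG3 or of SMC1β stops male meiosis.

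The cells were pachytene spermatocytes isolated from mouse testes and given DMSO (mock) or 2.5 µM BMH-21 for 12 h, where BMH-21 is an inhibitor of RNA polymerase I. ATAC-seq marks open chromatin by where a transposase can cut it. Each group had 2 libraries, named biological replicates by the submitters, from about 10000 cells each with 14 PCR cycles. Strain, age and whether the replicates came from separate animals are not given in the sources used here, so the spread between libraries may be partly technical. The comparison asks how inhibition of RNA polymerase I changes genome accessibility. The peak lists were 109230 and 117905 long for mock and 51234 and 55459 long for BMH-21, while the genome-wide background recovered from the peak statistics was 4.11 to 4.54 fragments in the 4 libraries. A peak missing from a list fell below the caller's threshold there. The smallest −log10 q was 2.01 and 2.06 in the mock lists and 2.09 and 2.02 in the BMH-21 lists. The lists thus ended at a like level, and why their lengths differ was not tested.

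The labelled cell type was checked at gene ends. All 8 spermatocyte markers, among them Sycp1, Sycp3 and Mybl1, had an end peak in all 4 libraries, with summed pileups of 1185 and 1199 fragments with DMSO and 1120 and 1176 with BMH-21. Markers of other testis cells were held by more mock than BMH-21 lists. Of 5 macrophage markers, 4 had an end peak in each mock library and 0 in each BMH-21 library, with summed pileups of 221 and 225 fragments in mock. Of 5 spermatid markers 2 and 3 had one in mock and 0 in each BMH-21 library. The numbers for 5 spermatogonial, 6 Sertoli and 5 Leydig markers were 4, 5 and 4 in each mock library, against 2 and 3, 3 and 3, and 2 and 2 in the BMH-21 libraries. Their summed pileups were 331 to 352, 489 to 513 and 228 to 259 fragments in mock and 73 to 101, 169 to 178 and 80 to 92 in BMH-21, and those of spermatid markers 118 to 200 and 0. The sums hide differences between markers. The Leydig marker Cyp11a1 was higher with BMH-21, at 36 and 38 fragments against 23 and 24 with DMSO. Kit, Zbtb16, Wt1, Insl3 and Amh, also held by all 4 lists, were lower. The Sertoli marker Amh differed least, at 147 and 157 with DMSO and 116 and 117 with BMH-21. Stra8, Tnp1, Acrv1, Gata4, Cyp17a1 and Adgre1 had no end peak in any library. The part of such cells in the results below was not tested, and fewer cells with an open site cannot be told apart from less opening per cell.

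The promoters that the results turn on are shown first. RefSeq promoter sequences (GRCm38.p6, 250 bases before to 50 after a tabulated start, on the strand of the gene) were matched for 7 of the 9 members. Rec8 and Smc1b are printed because their start regions differed most between the groups among the meiotic genes, in opposite directions, and Stag3 and Smc1a because they share an 8-letter run with Smc1b. Capitals mark matches on either strand to the E-box CACGTG, the E2F run GGCGGGA, the cAMP response element TGACGTCA, the MYB run TAACNG, the GC box GGGCGG, the box CCAAT and the E2F-type run TTCCCGCG, and adjoining matches run together.
Rec8, chr14:55617916-55618215, plus strand: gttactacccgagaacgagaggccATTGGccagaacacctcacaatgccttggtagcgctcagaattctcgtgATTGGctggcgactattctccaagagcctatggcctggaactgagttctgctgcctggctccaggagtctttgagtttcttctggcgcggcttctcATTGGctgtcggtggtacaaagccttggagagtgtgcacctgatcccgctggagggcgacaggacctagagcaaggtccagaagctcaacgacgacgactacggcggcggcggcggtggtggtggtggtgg
Smc1b, chr15:85131908-85132207, minus strand: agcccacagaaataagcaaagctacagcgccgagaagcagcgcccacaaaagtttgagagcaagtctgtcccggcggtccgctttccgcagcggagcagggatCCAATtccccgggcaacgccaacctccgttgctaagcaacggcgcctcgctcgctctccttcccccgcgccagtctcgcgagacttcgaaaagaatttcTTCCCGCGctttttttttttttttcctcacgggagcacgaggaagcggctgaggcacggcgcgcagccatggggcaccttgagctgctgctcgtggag
Stag3, chr5:138280259-138280558, plus strand: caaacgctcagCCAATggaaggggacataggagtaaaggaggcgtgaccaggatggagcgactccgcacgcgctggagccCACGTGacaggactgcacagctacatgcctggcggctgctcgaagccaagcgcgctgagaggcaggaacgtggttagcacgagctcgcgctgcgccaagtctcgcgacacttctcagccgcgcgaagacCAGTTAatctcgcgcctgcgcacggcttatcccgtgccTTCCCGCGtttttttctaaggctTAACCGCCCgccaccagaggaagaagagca
Smc1a, chrX:152016178-152016477, plus strand: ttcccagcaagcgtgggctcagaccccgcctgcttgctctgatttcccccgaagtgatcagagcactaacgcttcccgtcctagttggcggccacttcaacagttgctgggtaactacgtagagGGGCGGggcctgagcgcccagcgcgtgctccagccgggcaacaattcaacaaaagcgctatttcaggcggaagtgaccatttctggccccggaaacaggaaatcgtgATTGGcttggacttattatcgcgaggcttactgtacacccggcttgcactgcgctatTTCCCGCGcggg

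The Rec8 window held 3 matches to CCAAT, all read on the opposite strand, and no other listed run. It had 18 CpG dinucleotides, against a median of 7 over all 32817 tabulated promoters. The Smc1b, Stag3 and Smc1a windows held 29, 30 and 23 CpGs. The run TTCCCGCG, an E2F-type sequence picked after the sequences had been read, occurred in Smc1b, Stag3, Smc1a and Stag1, or 4 of 7 members, and in 1.01% of all promoters. Because the run was taken from these same windows, the 2 shares cannot be compared as a measure of enrichment. CCAAT occurred in 6 of 7 members against 37.4% of all promoters, and GGGCGG in 4 of 7 against 35.6%. Stag3 alone among the members held the E-box CACGTG (7.15% of all promoters) and the MYB-type run TAACNG (23.3%). No member window held GGCGGGA (11.3%) or TGACGTCA (1.79%). These matches describe letters in a window and say nothing of which factors bound there. Peaks of all 4 libraries covered the Smc1b, Stag3, Smc3, Stag1 and Smc1a windows in full and 242 to 300 bases of the Rec8 window. The window of Rad21l, with 2 CpGs and a GC content of 29.0%, lay outside every peak, since the Rad21l peaks sat at the outer end of the gene.

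Every cohesin gene kept at least 1 accessible region after BMH-21. Of the 9 genes, 7 had an end peak, no more than 1 kb from either end, in all 4 libraries (57.9% of all protein-coding genes did). A site is called mock-only if both mock lists and no BMH-21 list hold it, and BMH-21-only in the opposite case. The members with an end peak in both mock libraries were these same 7, so all 7 were kept and 0 were mock-only. Among the 15036 protein-coding genes with an end peak in both mock libraries, 84.3% were kept in all 4 and 11.5% were mock-only. Single end regions were mock-only in Rec8 and Smc1a, 2 of the 10 end regions of the members that both mock lists held. Of all end regions of protein-coding genes that both mock lists held, 26.5% on autosomes and 15.7% on X were mock-only. Stag3 and Rad21 had no end peak in any library (26.5% of protein-coding genes), but each had a wide region inside the gene in all 4 libraries. Counting peaks inside the gene as well, 9 of 9 members had a peak in every library, as did 67.7% of protein-coding genes. These counts are descriptions, since the members were chosen with results of these data known.

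**Figure D1:**
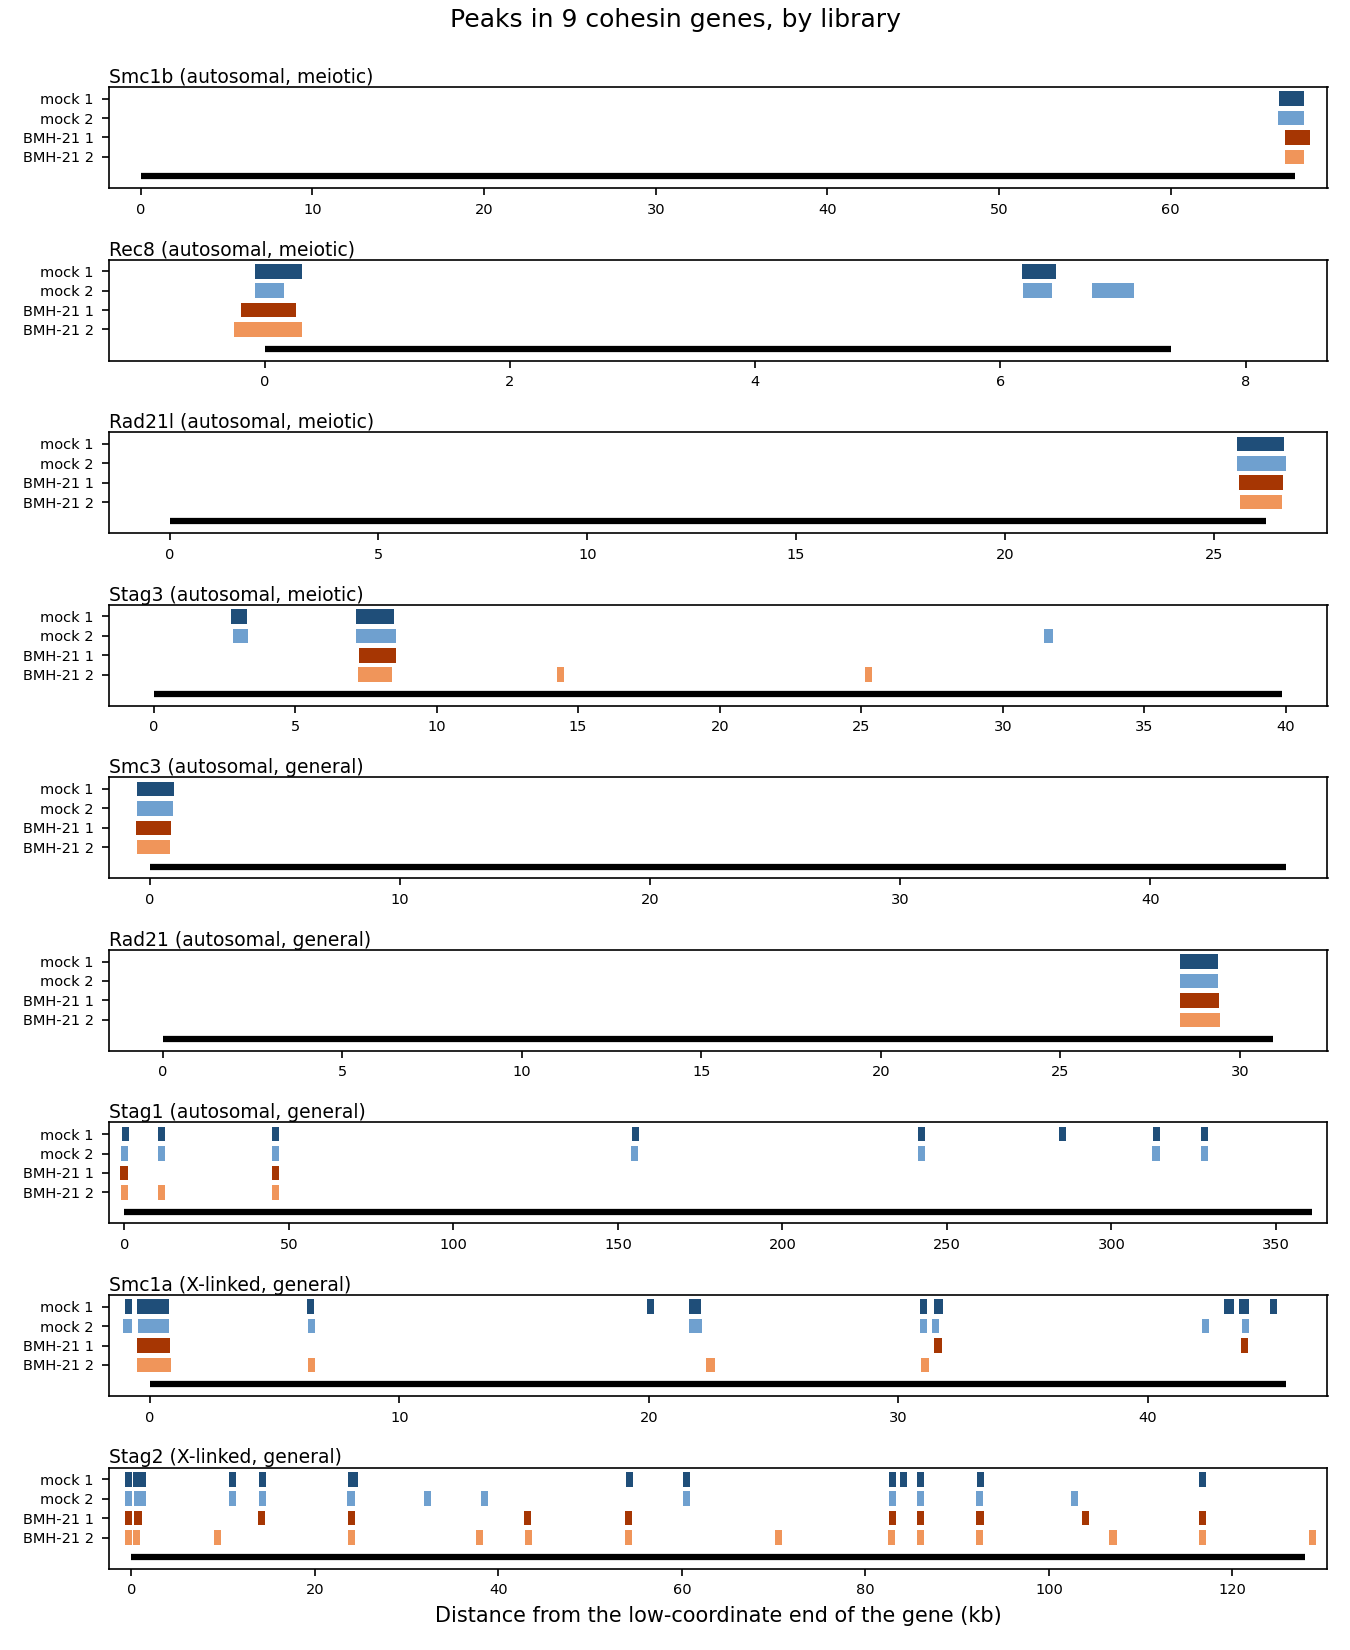
Peaks of each library (colored blocks, 1 row per library) along the 9 cohesin genes, with the gene as a black line and the distance from its low-coordinate end in kb on each horizontal axis. Narrow peaks are drawn at a minimum width to stay visible. Each gene has at least 1 place with a block in all 4 rows, whereas most blocks inside Stag1 appear only in the mock rows.

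A kept region at a gene end or tabulated start is called a start region here, and for Rad21l it lies upstream of the tabulated start. Its level is given as the pileup, the number of fragments over the summit of the peak, which was recovered from the deposited fold and p of the peak. Pileups were not scaled between libraries. For the regions of autosomal protein-coding genes held by all 4 lists, the log2 ratio of the mean BMH-21 to the mean mock pileup had a median of -0.16, with 5th and 95th percentiles of -1.63 and 0.75. A region was counted as higher or lower in BMH-21 if both BMH-21 pileups lay beyond both mock pileups and the means differed at least 1.5-fold. By this rule 7.95% of the 16479 autosomal regions were higher and 26.4% lower. Without the 1.5-fold limit, both BMH-21 pileups lay above both mock pileups at 28.8% of these regions and below both at 53.3%. For X gene regions held by all 4 lists these shares were 12.5% and 55.1%. With the 1.5-fold limit and pileups divided by the genome-wide background of their library, 9.11% of the autosomal regions were higher and 24.6% lower. With that limit and the fold over local background in place of the pileup, 12.1% of the autosomal regions were higher and 14.1% lower. With 2 libraries against 2, an exact permutation test over the 3 splits cannot give a two-sided p below 0.333.

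Rec8, the kleisin that is cleaved when homologues and then sister chromatids part, had the highest ratio of BMH-21 to mock among the members. Its start region (chr14:55617753-55618305) had pileups of 34 and 30 fragments with DMSO and 81 and 88 with BMH-21. The groups did not overlap, and the ratio of means was 2.64 (log2 1.40, exact permutation p = 0.333). Exact Poisson 95% intervals were 23.5 to 47.5 and 20.2 to 42.8 fragments in mock and 64.3 to 101 and 70.6 to 108 in BMH-21 libraries, covering counting error only. Of the autosomal gene regions held by all 4 lists, 0.704% had a higher ratio. Among the 2587 regions with a mean mock pileup within 1.5-fold of that of Rec8, 26.1% were counted as higher and 3.79% exceeded the ratio of Rec8. The local background of the peak was 7.08 and 5.9 fragments with DMSO and 8.06 and 7.74 with BMH-21. The peak spanned 382 and 242 bp with DMSO and 450 and 553 bp with BMH-21, and its summits lay at -148, -133, -129 and -115 bp from the tabulated start, negative positions being upstream. The stretch of the Rec8 promoter shown above therefore held the summit in each library.

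The other end of Rec8 held a mock-only site. A region near the high-coordinate end (chr14:55624175-55624458), with the importin gene Ipo4 5 bp beyond that end, had pileups of 73 and 72 fragments in mock and no peak in either BMH-21 list. A further peak there (chr14:55624750-55625089) was in the second mock list only, with 60 fragments. Both stood on a high local background of 24.3 to 25.5 fragments, so that their folds were only 2.3 to 2.88. Each list thus placed its strongest Rec8 peak, by fold, at the start. When all lists were cut to the length of the shortest, the Rec8 start peak was no longer in either mock list and was in both BMH-21 lists.

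Smc1b, the meiotic partner of SMC3, was lower in both BMH-21 libraries. Its start region (chr15:85130965-85132791) had pileups of 147 and 153 fragments with DMSO and 82 and 87 with BMH-21. The groups did not overlap, and the mock mean was 1.78 times the BMH-21 mean (log2 ratio -0.83, exact permutation p = 0.333). The local background was 17.1 with DMSO and 17.5 and 18 with BMH-21. Of the autosomal regions held by all 4 lists, 18.9% had a lower ratio, so the difference at Smc1b was well within the range of all genes. The region also holds the low-coordinate end of Ribc2, which lies 103 bp from Smc1b, and the peak cannot be assigned to either gene. A ratio lower than that of Smc1b was found at 18.4% of the 8790 regions with a mean mock pileup within 1.5-fold of its own.

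The order of Rec8 and Smc1b by fold enrichment differed between the groups. The fold is the pileup over the local background, and the genes are ordered by it here within each list. The strongest Smc1b peak had folds of 8.17 and 8.52 in the mock lists, above the 4.33 and 4.49 of Rec8. In the BMH-21 lists Smc1b had 4.50 and 4.63, below the 9.05 and 10.2 of Rec8. Among the 12675 protein-coding genes with an end peak in all 4 libraries, a set that is the same for each library, the percentile of Rec8 was 12.1 and 12.4 with DMSO and 79.3 and 86.2 with BMH-21. The percentile of Smc1b was 57.2 and 59.0 with DMSO and 14.4 and 13.7 with BMH-21.

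**Figure D2:**
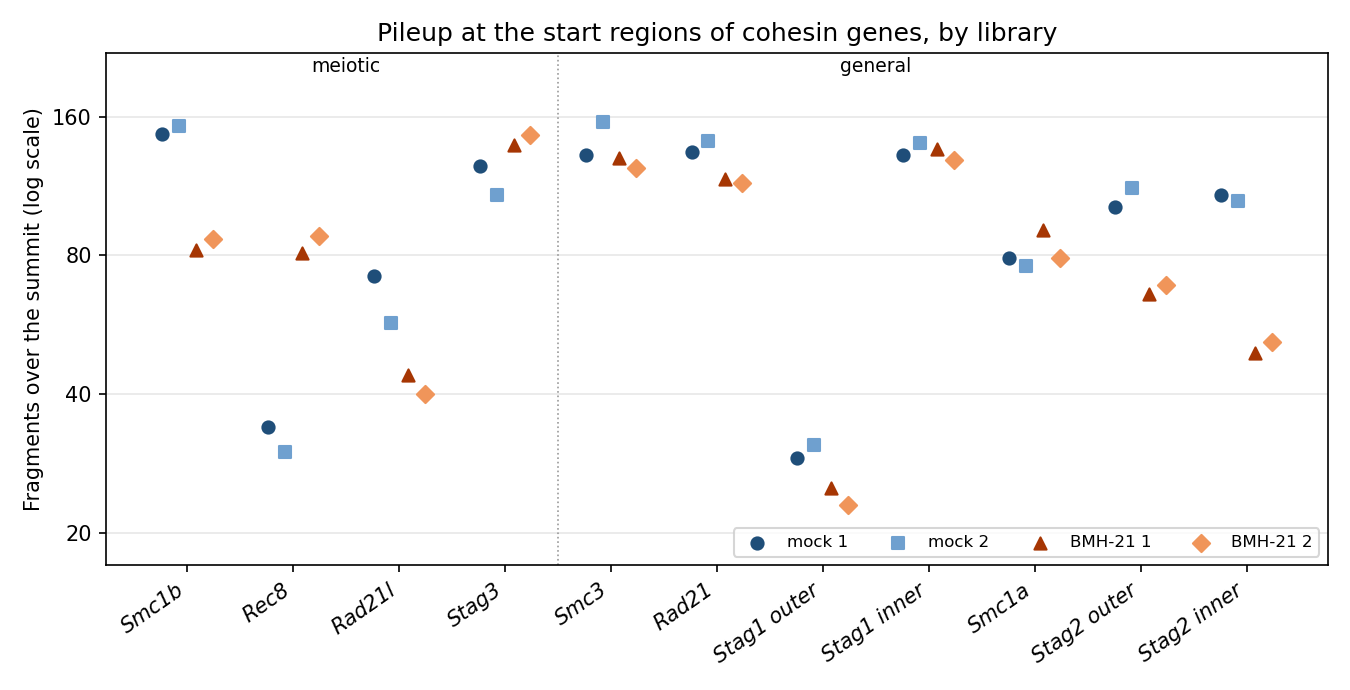
Fragments over the summit (log axis) of the start regions of the cohesin genes in each of the 4 libraries (1 point per library). For Rad21, which has no start region, the kept region inside the gene is drawn. The Rec8 points lie at 30 and 34 with DMSO and at 81 and 88 with BMH-21. Those of Smc1b, Rad21l, Smc3, Rad21, the outer Stag1 region and both Stag2 regions are lower in both BMH-21 libraries. Stag1 and Stag2 each have an outer region, at the gene end, and an inner region.

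Rad21l and Stag3, the other meiotic members, differed less. Rad21l encodes a kleisin of early prophase axes, and its end region (chr2:151669908-151671099) had pileups of 72 and 57 fragments with DMSO and 44 and 40 with BMH-21. The groups did not overlap, the log2 ratio was -0.62 (exact permutation p = 0.333), and 25% of autosomal regions had a lower one. Stag3 encodes the STAG protein of meiotic cohesin, and its start region (chr5:138279660-138281072) had pileups of 125 and 108 fragments with DMSO and 139 and 146 with BMH-21. Both BMH-21 values were higher, but the log2 ratio of 0.29 was below the 1.5-fold limit. The Stag3 region also lies at an end of Gpc2, which encodes a glypican. A second region inside Stag3 (chr5:138275254-138275836) was mock-only, with 58 and 64 fragments and folds of 2.65 and 3.06. It also lies wholly inside Gpc2 and upstream of the tabulated Stag3 start, and cannot be assigned to either gene. By the 1.5-fold rule, 1 meiotic gene was higher, 2 were lower and 1 was not counted, next to 7.95% higher and 26.4% lower among all autosomal regions. Rad21l, at 1.54-fold, was no longer counted as lower after scaling by the background (log2 -0.57), by fold (log2 -0.21, 9.84 and 8.03 against 8.25 and 7.22), without the first mock library (log2 -0.44) or without the second BMH-21 library (log2 -0.55). Rec8 and Smc1b were counted in the same direction in all of these settings and without each other library.

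The general members on the autosomes had levels within the 1.5-fold limit at all kept regions. Smc3 encodes the SMC subunit found in every cohesin complex. Its start region (chr19:53599829-53601348) had pileups of 132 and 156 fragments with DMSO and 130 and 124 with BMH-21, a log2 ratio of -0.18. Rad21 encodes the general kleisin, and its region (chr15:51990942-51992061), 2.0 kb inside the high-coordinate end, had 134 and 142 fragments with DMSO and 117 and 115 with BMH-21, a log2 ratio of -0.25. That region also lies at an end of the predicted gene Gm52217. These 2 regions had the highest mean folds of the kept regions in the general genes. For Stag1, a general STAG gene, the inner start region (chr9:100642727-100644689) had 132 and 140 fragments with DMSO and 136 and 129 with BMH-21, with overlapping groups. A weaker region at the outer end of Stag1 (chr9:100597389-100598185) had 29 and 31 fragments with DMSO and 25 and 23 with BMH-21. Its peaks were joined by little overlap: the first mock peak began at 100597787 and the first BMH-21 peak ended at 100597788. The summits lay at 100597975 and 100598048 with DMSO and at 100597627 and 100598015 with BMH-21. The second BMH-21 list held 2 peaks there. The pileups of this outer region thus come partly from different positions. At Smc3, Rad21 and the outer Stag1 region both BMH-21 pileups lay below both mock pileups, as at 53.3% of all such autosomal regions. By fold the log2 ratio turned positive at Smc3 (0.15) and the inner Stag1 region (0.09). It stayed negative at Rad21 (-0.34) and the outer Stag1 region (-0.27). Of the 4 regions kept in these 3 genes, 0 passed the 1.5-fold limit in either direction. In the meiotic genes 3 of 4 did, or 2 of 4 where Rad21l was not counted. By the same rule 7.95% of all autosomal gene regions held by all 4 lists were higher and 26.4% lower. The difference between the classes was not tested.

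On X, the pileups at both end regions of Stag2 were lower in both BMH-21 libraries, as was the local background there, and those of Smc1a overlapped between groups. Smc1a encodes the general SMC1 subunit, and its start region (chrX:152015912-152017263) had pileups of 79 and 76 fragments with DMSO and 91 and 79 with BMH-21. The groups touched at 79, and the log2 ratio was 0.13, against a median of -0.30 over the 2424 X gene regions held by all 4 lists. By fold the direction was the opposite, at 7.53 and 7.14 with DMSO against 6.44 and 5.95 with BMH-21 (log2 -0.24). The local background of the Smc1a region was 9.62 and 9.78 fragments with DMSO and 13.3 and 12.4 with BMH-21. This region is shared with the high-coordinate end of Ribc1, which overlaps Smc1a by 459 bp. The outer region at the low-coordinate end of Stag2, a general STAG gene (chrX:42148746-42149301), had 102 and 112 fragments with DMSO and 66 and 69 with BMH-21, a log2 ratio of -0.66. Its inner region there (chrX:42149515-42150922) had 108 and 105 fragments with DMSO and 49 and 52 with BMH-21, a log2 ratio of -1.08, and 1.65% of X gene regions had a lower one. The local background was 17.3 and 18.3 fragments with DMSO and 11.5 and 11.3 with BMH-21 at the outer region, and 17.2 and 18.3 against 11.1 and 11.4 at the inner. By fold neither region was counted as lower: the outer had 5.62 and 5.85 against 5.37 and 5.67, which overlap (log2 -0.06), and the inner had a log2 ratio of -0.45. In the mock lists this inner region was covered over 1400 and 1382 bp and in the BMH-21 lists over 764 and 611 bp. By the 1.5-fold rule 0 of the 7 kept X regions was higher and 2 were lower, both in Stag2, while 1.9% of all such X regions were higher and 24.4% lower. After scaling by the background the shares were 2.27% and 20.5% and the same 2 Stag2 regions were lower. By fold they were 0.248% and 53.5%, and 2 other Stag2 regions were lower, at 24.2 and 82.9 kb from the low-coordinate end (log2 -0.74 and -0.67).

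**Figure D3:**
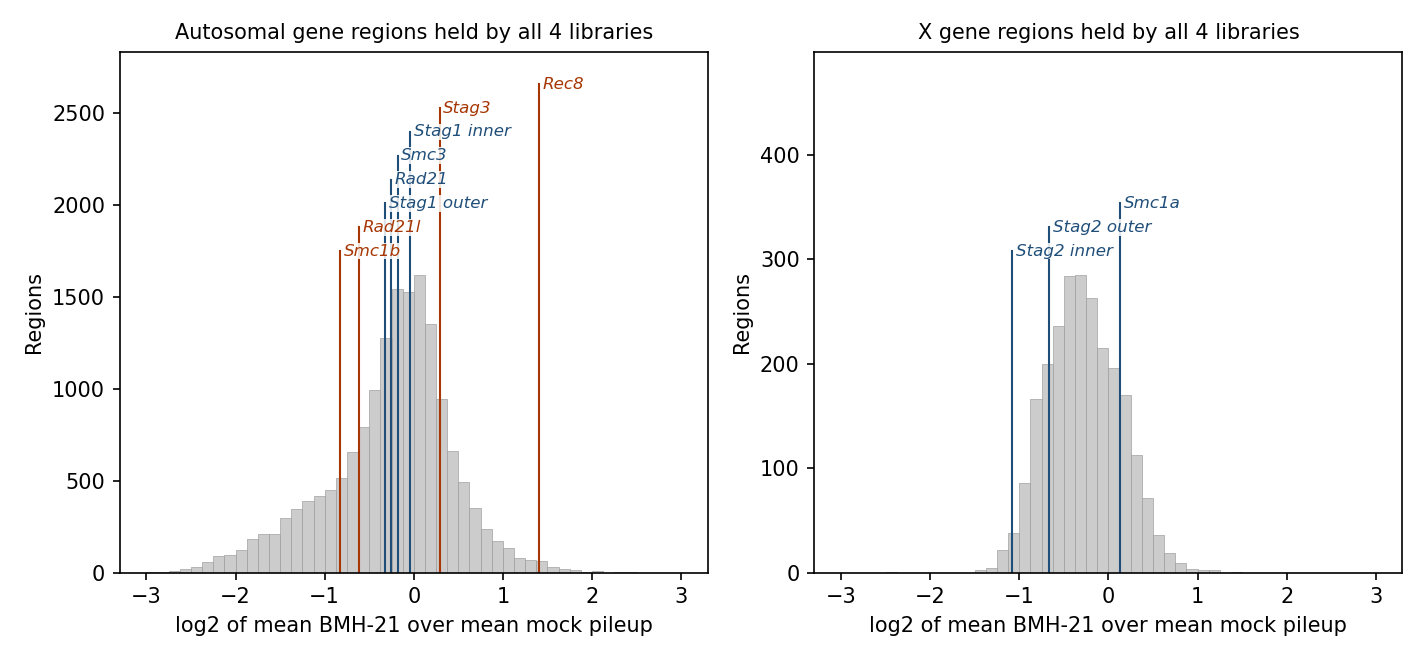
Number of regions (vertical axis) by the log2 ratio of mean BMH-21 to mean mock pileup (horizontal axis), for gene regions held by all 4 libraries on the autosomes (left, 16479 regions) and X (right, 2424). Lines mark the start regions of meiotic (orange) and general (blue) cohesin genes, and for Rad21 the kept region inside the gene. Rec8 lies at 1.40 in the right tail and the inner Stag2 region at -1.08.

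Among kept regions with 1 peak in each library, the summit moved in 3 of 7 autosomal member regions, at Smc3, Stag1 and Rad21l, and in 0 of 6 on X. The outer Stag1 and inner Stag2 regions, with 2 peaks in a BMH-21 list, were left out. Relative to the tabulated start, with negative positions upstream, the Smc3 summit lay at 426 and 417 bp with DMSO and at -354 and -305 bp with BMH-21. The summit of the inner Stag1 region lay at 854 and 849 bp with DMSO and at -137 and -131 bp with BMH-21. The Rad21l summit lay at -1747 and -1799 bp with DMSO and at -2140 and -2128 bp with BMH-21. In all 3 genes the BMH-21 summits were the more upstream ones, and libraries of a group agreed within 52 bp. The distances between the group means were 751, 985.5 and 361 bp. At Rec8, Stag3 and Rad21 the group means were 9 to 18.5 bp apart, and at Smc1b the second BMH-21 library differed from the first by 350 bp. A summit was counted as moved, by a rule set after these values were seen, if libraries of a group agreed within 100 bp and the groups differed by at least 300 bp. This held for 8.54% of the autosomal gene regions with 1 peak in each library, for 14.2% of those at least 1 kb wide, and for 2.37% of X gene regions. Where the summit moved, the pileups above come from different positions of the region.

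Numbers of peaks over whole genes were compared by class. The meiotic genes, 149 kb with their flanks, held 6 and 8 peaks with DMSO and 4 and 6 with BMH-21. The numbers touched at 6 (exact permutation p = 0.667), so no difference was detectable. The general autosomal genes, 443 kb, held 10 and 9 peaks with DMSO and 4 and 6 with BMH-21, and the general X genes, 177 kb, 22 and 20 against 15 and 18. In both of these the groups did not overlap (exact permutation p = 0.333, the smallest possible). Per 100 kb, X-linked members had 12.4 and 11.3 peaks with DMSO and 8.45 and 10.1 with BMH-21, and autosomal general members 2.26 and 2.03 against 0.903 and 1.35. Meiotic members had 4.03 and 5.38 against 2.69 and 4.03. The whole lists held 90181 and 97291 autosomal peaks with DMSO and 34899 and 38099 with BMH-21. On X they held 18869 and 20398 against 16085 and 17061, so X peaks were a larger part of the BMH-21 lists. Whether the counts in the members differ from what these totals give was not tested, with full lists or with lists of equal length. When the lists were cut to equal length, the X-linked members held 10.5 peaks on average in mock and 15.5 in BMH-21 libraries, and the meiotic members 4.5 and 5, so the direction turned in these 2 classes. The autosomal general members then held 6 and 5 on average, and their groups were no longer apart (exact permutation p = 1).

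**Figure D4:**
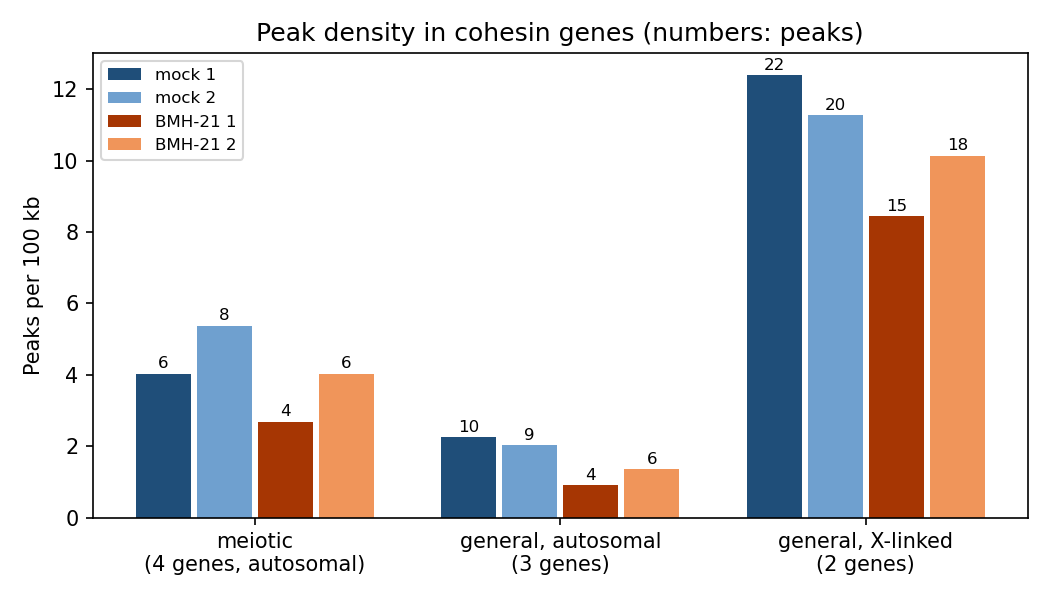
Peaks per 100 kb of gene and flanks (bars, with the number of peaks above each) in the 3 classes of cohesin genes, for each library. The X-linked general genes carry 8.45 to 12.4 peaks per 100 kb and the autosomal classes 0.903 to 5.38.

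Of the regions held by both mock libraries, 2 of 6 in the meiotic genes were mock-only (33.3%, exact binomial 95% interval 4.33 to 77.7%) and 4 of 9 in the general autosomal genes (44.4%, 13.7 to 78.8%). For all autosomal protein-coding genes with their flanks the share was 59.2%, within both intervals. In the general X genes 4 of 16 were mock-only (25%, 7.27 to 52.4%), next to 24% of all X gene regions, and the share was 43.8% without the first BMH-21 library, 40% without the first mock library or with a stricter threshold, and 46.2% with a looser definition of mock-only. The intervals of all 3 classes overlap. Away from gene ends, 4 of 7 regions in the general autosomal genes were mock-only (75.6% of all such autosomal regions), all of them inside Stag1, and 3 of 12 in the X genes (25.8% of all such X regions). Regions of a gene share its chromatin and are not independent of each other.

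Stag1, the longest member at 361 kb, held 4 of the 10 mock-only regions. Its strongest mock-only region (chr9:100752695-100753274), 155 kb from the low-coordinate end, had 34 and 44 fragments and folds of 6.32 and 8.47 in mock. Another (chr9:100839852-100840098) had 35 and 30 fragments, and the other two had 20 to 26. A region 11.3 kb from that end was in both mock lists and the second BMH-21 list, with 26, 26 and 22 fragments. BMH-21 lists therefore held 2 and 4 peaks in Stag1, against 8 and 7 in mock.

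The strongest region of Stag2 in the mock lists, by fold, was mock-only. It lay 60.5 kb from the low-coordinate end (chrX:42209423-42210150), with 56 and 55 fragments and folds of 10.3 and 10.5, and no BMH-21 list held it. A second mock-only region of Stag2 (chrX:42160201-42160497) had 44 and 36 fragments. The only BMH-21-only region in any cohesin gene was in Stag2 as well (chrX:42192134-42192775), with 32 fragments in each BMH-21 library, so 1 of 10 regions held by both BMH-21 lists in the X members was BMH-21-only, against 10.9% of all such X gene regions. On the autosomes 0 of 8 was, against 12.9%. The BMH-21 lists held 12 and 14 peaks in Stag2 and the mock lists 12 each, but 2 and 6 of the BMH-21 peaks lay in regions that no mock list held. Smc1a had 10 and 8 peaks with DMSO and 3 and 4 with BMH-21, with 2 mock-only regions, one just outside its start (chrX:152015356-152015714, 30 and 37 fragments) and one inside (chrX:152038024-152038574, 34 and 44 fragments). Of the 34 regions in the 2 X genes, 15 were in a single library.

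The genes that load, release, acetylate and protect cohesin were read in the same way, together with boundary factors and related SMC complexes. Of 20 such genes, 18 had an end peak in all 4 libraries, as did 57.9% of all protein-coding genes. These 18 were all that had an end peak in both mock libraries, so 0 were mock-only (11.5% of such protein-coding genes were). Of the 2 with no mock end peak, 0 were BMH-21-only (2.86% of such protein-coding genes were). Sgo1, the shugoshin of mitosis, and Pttg1, the securin, had no end peak in any library but had 1 or 2 peaks inside the gene in each. The kept genes with the highest folds in mock were Smc2, a condensin subunit, Meikin, a meiotic kinetochore factor, and Esco1, a cohesin acetyltransferase. Their strongest end pileups were 102 and 115 fragments with DMSO and 111 and 103 with BMH-21 for Smc2, 74 and 61 against 85 and 94 for Meikin, and 159 and 166 against 121 and 139 for Esco1. By the 1.5-fold rule applied to gene ends, 2 of the 18 were higher (5.33% of all 12675 genes) and 1 was lower (21.5%), with a median ratio of 0.998. These 3 are named because of their values. Only Sgo2a was still counted by fold, where Espl1 had a log2 ratio of 0.34 and Ctcfl one of -0.26. By fold Smc2 and the X-linked Hdac8, a deacetylase of SMC3, were lower (log2 -0.62 and -0.88). The Hdac8 pileups were 43 and 49 fragments with DMSO and 46 in each BMH-21 library. Of the gene regions held by all 4 lists, 14.1% on autosomes and 53.5% on X were lower by fold, and 12.1% and 0.248% higher. Sgo2a, the shugoshin that shields REC8 at meiotic centromeres, had 23 and 18 fragments with DMSO and 42 and 40 with BMH-21. Espl1, the gene of separase, which cleaves kleisins, had 69 and 80 against 131 and 135. Ctcfl, the germ-line paralog of the boundary factor CTCF, had 70 and 79 against 39 and 46.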

How the data were processed

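The authors deposited 1 peak list for each of 4 libraries. Per the submitters' processing notes, fastp, Bowtie2, bedtools, deepTools and MACS2 2.1.0 were used, without role or order. Call parameters, duplicate removal and transposase shifts are not given in the sources used here. The authors' fold is a ratio, the summit pileup over the local background of a single library. Significance was deposited as −log10 values of p and of q, and the integer score in the authors' lists is 10 times the latter for nearly all peaks. No column is scaled between libraries. Both mm39 and mm10 are named in the notes, and mm10 was used because peaks reach position 195371813 on chromosome 1, beyond its end in mm39. Positions are 1-based.

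Pileups and local backgrounds were recovered from fold and p through the caller's Poisson relation, and the recovered −log10 p missed the deposited one by 0.000799 at most. Peaks overlapping by at least 1 bp were merged. Python 3.11.15, numpy 2.4.6, pandas 2.3.3 and scipy 1.17.1 were used, and the procedures were tested on simulated data. Members, lists and tests were chosen with earlier results of these data known. Named genes were all members, regulators not kept in all 4 libraries and the 3 kept ones with the highest mock percentile, the strongest regions of each class by fold, and for each member the gene with the nearest percentiles. Alternatives were a −log10 q of at least 5, equal list lengths, windows of 100 bp around summits, gene-end windows of 500 bp and 2.5 kb, looser mock-only calls, a merging overlap of 50%, and leaving out each library. The 1.5-fold rule for pileups, the summit rule, the TTCCCGCG search, a scaling of pileups by the genome-wide background, and the use of the fold, were chosen after seeing the data.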

Additional observations from a re-analysis of the deposited data

How the results depend on the processing

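With 2 libraries a group, the exact permutation test cannot go below 0.333, and the pileups rest on 17 to 156 fragments in the kept regions. Under other thresholds, list lengths, peak and end windows, mock-only definitions and without each library, 0 cohesin genes were mock-only over all their end peaks. With equal list lengths the difference in peaks (BMH-21 minus mock) was 0.5 in the meiotic and 5 in the X-linked genes, against -2 and -4.5, and -1 in place of -4.5 in the general autosomal genes. In that setting 3 in place of 5 members had their strongest end peak in the upper part of every list (above its median fold), and 2 regulators, Nipbl and Sgo2a, were BMH-21-only, against 0. There 11 of the 15 kept member regions were still in all 4 lists, and 6 of the 10 mock-only regions were still mock-only. Leaving out 1 library in turn, the difference in peaks ranged from -3 to -1 in meiotic, -5.5 to -3.5 in general autosomal and -6 to -3 in X-linked genes. The mock-only share then ranged from 33.3 to 50.0%, from 44.4 to 55.6% and from 36.4 to 43.8%, against 33.3, 44.4 and 25%; with 1 library left in a group fewer lists must hold or lack a region. With a −log10 q of at least 5 the X-linked share was 40% (6 of 15 regions) and the difference -7.5 peaks, and with mock-only taken as at least 1 mock library that share was 46.2% (12 of 26). With summit windows the shares were 50.0, 66.7 and 28.6%. The log2 ratio of Rec8 ranged from 1.31 to 1.49 without 1 library, and was 1.45 after scaling by the background and 1.12 by fold. That of Smc1b ranged from -0.87 to -0.79 and was -0.78 and -0.87. The number of meiotic regions counted as lower was 1 in place of 2 by fold and after scaling, since Rad21l was lost, and 1 to 2 without 1 library. By fold the regulators had 1 higher and 2 lower in place of 2 and 1. With a replicate block, libraries of the same number were taken as pairs, and the differences of -2, -4.5 and -4.5 peaks had an exact sign-flip p of 0.5, the smallest for 2 pairs. The labels do not say that a number marks a shared animal or day, and no other pairing was tried.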

Other observations

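The genes with the most similar pattern of end peaks were found by the distance between percentiles of the strongest end peak over the 4 libraries, among 12675 protein-coding genes. For Smc1b and Smc1a the nearest genes were Ribc2 and Ribc1, at a distance of 0 points, since each pair shares 1 start region. The general and the meiotic SMC1 gene thus each share an accessible end region with a Ribc paralog, and the shared region was kept in all 4 libraries at both. For Rec8 the nearest gene was Mdfi, at 2.47 percentile points, with percentiles of 46.8 and 51.9 (mock) and 93.7 and 95.1 (BMH-21) within the lists. The nearest genes for the others were Fahd2a for Rad21l, Igf2r for Smc3, Ptchd1 for Stag1 and Smurf1 for Stag2, at 1.60 to 3.10 points. With 4 libraries and this many genes, a near neighbour is always found, and nothing about shared function follows.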
